A study of Mus musculus with 6 samples.

Results

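The colony-stimulating factors and their receptors are 7 genes, namely 3 for ligands (Csf1, Csf2 and Csf3) and 4 for receptor chains (Csf1r, Csf2ra, Csf2rb and Csf3r). They were chosen by name, as all probe sets that list one of these genes and no other gene, which gave 14 of the 45037 probe sets kept. Their RNA was measured in mouse macrophages on 6 one-colour Affymetrix arrays, 1 per sample. The Trib1-line arrays hold macrophages treated with lipopolysaccharide (LPS, a bacterial cell wall component), of Trib1-deficient mice (2 arrays, numbered 1 and 2) and of wild-type mice (2 arrays, numbered 1 and 2). A further wild-type array treated with LPS (1 array) and a wild-type array given medium (1 array) form the LPS pair, which the series design uses to define LPS-inducible genes. The labels give no strain, sex, age, allele, source of the macrophages, LPS dose or time, and do not say whether same-genotype arrays come from separate animals, and any p-value here reflects the spread among these samples, which may be technical.

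CSF1, which acts through the receptor tyrosine kinase CSF1R, keeps macrophages alive and dividing. GM-CSF, the product of Csf2, binds a ligand-specific alpha chain (Csf2ra) paired with a signalling beta chain (Csf2rb) that the interleukin 3 and interleukin 5 receptors share. G-CSF, the product of Csf3, acts through CSF3R and drives the production and release of neutrophils. Activated macrophages are a known source of G-CSF, and both GM-CSF and G-CSF transcripts are known as short-lived messages of the inflammatory response.

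Intensities were scaled to a common trimmed mean. A floor of 29.9, the pooled 40th percentile, replaced lower values before log2 was taken, and each array had 57.9% to 63.0% of its probe sets over it. Precision is limited throughout by how few arrays there are. Macrophage markers were high on all arrays, with Cd68 between 15787 and 18601 and Lyz2 between 17859 and 22530, while Cd163 was above the floor on the LPS pair alone. Trib1 itself measured 88.1 and 20.9 on knockout-labelled arrays and 17.9 and 17.5 on wild-type Trib1-line arrays on 1424880_at, and 32.3 and 38.7 against 20.2 and 63.0 on 1424881_at. On 1424880_at the LPS array measured 189 and the medium array 383. Both wild-type Trib1-line arrays were under the floor on that probe set, so no fall from them could be seen. On 1424881_at wild type 1 was under the floor as well. Which stretch of the gene was deleted is also not stated. The Trib1 levels therefore cannot check genotype, and the term knockout-labelled refers to the sample titles alone. The deposited scale of the LPS pair was higher than that of the Trib1 line, and Xist, transcribed in female cells, was under the floor on all 4 Trib1-line arrays and measured 980 on the LPS array and 1616 in medium, so differences between the LPS pair and the Trib1 line cannot be told apart from a difference in sex or experiment.

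Promoter windows from RefSeq (GRCm38.p6, 250 bases before to 50 bases after the annotated start) were searched for Csf1, Csf2, Csf2ra and Csf3r, 4 of the 7 genes, and were not used for Csf3, Csf1r and Csf2rb. The windows of Csf1 and Csf2 are shown because both ligand genes were higher on the LPS array than in medium. Capitals mark matches to an NF-kB motif (3 G, any 5 bases, then 2 C), searched on both strands, where neighbouring capitals can hold overlapping matches.
Csf1, chr3:107760420-107760719, minus strand: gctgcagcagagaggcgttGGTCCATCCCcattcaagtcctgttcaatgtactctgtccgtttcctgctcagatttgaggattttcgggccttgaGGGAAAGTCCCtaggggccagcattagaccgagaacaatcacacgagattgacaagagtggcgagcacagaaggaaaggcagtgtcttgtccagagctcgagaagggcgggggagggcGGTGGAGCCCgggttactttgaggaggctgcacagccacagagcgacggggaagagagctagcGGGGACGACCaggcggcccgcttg
Csf2, chr11:54249850-54250149, minus strand: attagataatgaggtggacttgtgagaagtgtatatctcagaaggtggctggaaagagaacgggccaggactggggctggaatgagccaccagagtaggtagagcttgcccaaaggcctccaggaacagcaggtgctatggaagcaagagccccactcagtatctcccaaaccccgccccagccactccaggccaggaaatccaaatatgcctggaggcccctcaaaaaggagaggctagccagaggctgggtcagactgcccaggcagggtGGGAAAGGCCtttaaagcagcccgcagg
The Csf1 window held 5 matches, of which GGGAAAGTCC, starting 155 bases before the annotated start, overlaps a match on the other strand. The Csf2 window held 1 match, after the annotated start, and 1 match to a C/EBP motif spelled TTNNGNAA (printed as TTGCCCAA, since the match is on the other strand). By the same search the Csf2ra window held 2 overlapping NF-kB matches and 1 C/EBP match, and the Csf3r window held 3 NF-kB matches and no C/EBP match. No member window held an AP-1 motif (TGANTCA), and GAGGAA, the core bound by the macrophage factor PU.1, occurred 2 times in the Csf2ra window, 1 time in that of Csf3r, and in neither ligand window. Among all 32851 windows of this length, 50.8% held the NF-kB motif, 40.7% the C/EBP motif, 7.81% the AP-1 motif and 28.3% the PU.1 core, so a match is a description of these letters and not of a bound site.

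Among the ligands, Csf3 differed most between genotypes. Its 1 probe set, 1419427_at, measured 1092 and 1316 on knockout-labelled arrays, 129.8 and 286 on wild-type Trib1-line arrays, 175 on the LPS array and 37.6 in medium. Both knockout-labelled arrays lay far above every wild-type array, LPS-treated or not, and the LPS array of the LPS pair fell between the wild-type Trib1-line arrays. The genotypes differed 6.22-fold (log2 2.64, SE 0.40, 95% interval 1.65 to 3.63, n = 2 per genotype), which did not pass the test over all probe sets (limma, Benjamini-Hochberg adjusted p = 0.766). The wild-type arrays differed from each other by more than the knockout-labelled arrays did (SD of log2 0.19 for knockout-labelled and 0.80 for wild type, n = 2 each). At an unadjusted p of 0.000721, Csf3 ranked 26 of 29078 probe sets tested. Leaving out 1 array at a time gave log2 differences from 2.07 to 3.21, in fits that leave 1 genotype with a single array and no spread of its own.

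**Figure D1:**
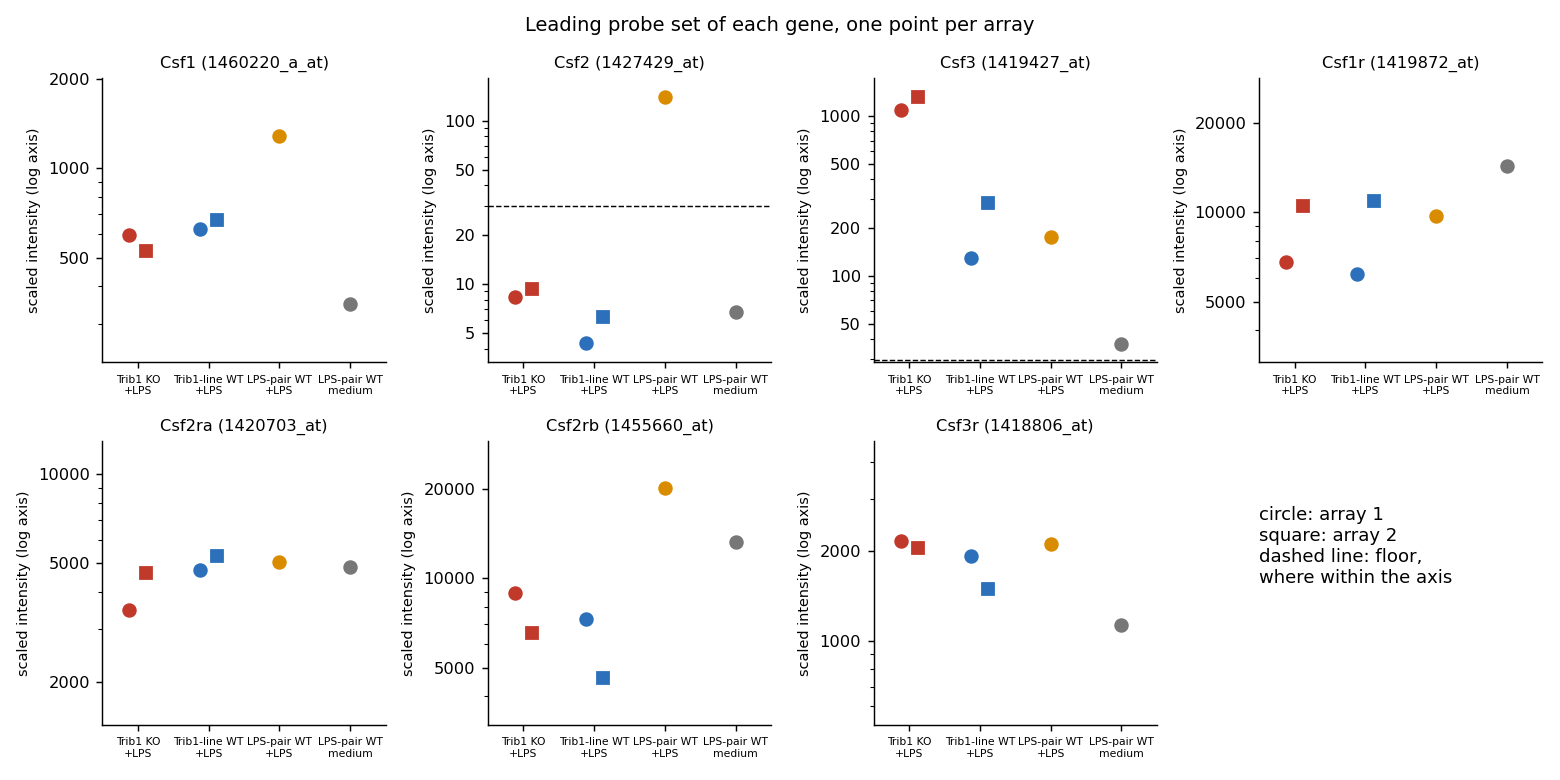
Scaled intensity (log axis) of the leading probe set of each of the 7 genes, 1 point per array, for knockout-labelled arrays, their wild-type counterparts and the LPS and medium arrays of the LPS pair. Among the points of Csf3, those of the knockout-labelled arrays (1092 and 1316) are the highest, Csf2 is above the floor of 29.9 on the LPS array alone, and the genotype points overlap for Csf1r and Csf2rb.

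Cell type markers also differed between the genotype labels, none past the adjusted test, and their part in the Csf3 difference was not tested. Over all probe sets, both knockout-labelled arrays were above both wild-type arrays for 15.4% and below for 16.3%. In RNA from a mixed sample, a change in the number of cells of a type and a change in RNA per cell cannot be told apart. The summed level of 12 neutrophil markers was 19615 and 8987 on knockout-labelled arrays and 2035 and 1964 on wild-type arrays. Both knockout-labelled arrays were above both wild-type arrays for S100a8, S100a9, Mmp8, Mmp9 and Camp, 5 of 11 tested, and below for Ltf, 1 of the 11. Among the same markers, Elane measured between 64.4 and 118 and Prtn3 between 29.8 and 73.0 over all arrays. Of 11 mesothelial and stromal markers, cell types that can make colony-stimulating factors, the sum was 1943 and 4568 on knockout-labelled arrays and 1350 and 1659 on wild-type arrays. On both knockout-labelled arrays, 5 of the 8 tested were above both wild-type arrays and 0 were below. The neutrophil and stromal sums ran in opposite order on the knockout-labelled arrays, with array 1 higher for neutrophil markers and array 2 higher for stromal ones. The mast cell list, which sums to 764 and 630 on knockout-labelled and 1007 and 1518 on wild-type arrays, had 5 of 6 tested markers lower on both knockout-labelled arrays than on both wild-type arrays. For B cell markers, which sum to 1474 and 2422 against 1390 and 2930, this held for 6 of 7. Macrophage markers had 5 of 8 tested above and 1 below, among them Itgam at 2256 and 2411 on knockout-labelled arrays and 1441 and 1555 on wild-type arrays, and Cd14, a co-receptor for LPS, at 23075 and 19999 against 13871 and 14874. Their log2 differences were 0.64 (SE 0.16) for Itgam and 0.58 (SE 0.17) for Cd14.

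Csf1 differed little between genotypes, with both knockout-labelled arrays below both wild-type arrays on 2 of its 4 probe sets and overlap on the others. Its leading probe set, 1460220_a_at, measured 598 and 526 on knockout-labelled arrays, 626 and 668 on wild-type Trib1-line arrays, 1281 on the LPS array and 349 in medium. The knockout-labelled arrays lay just below the wild-type arrays, and the log2 difference was -0.21 (SE 0.20, 95% interval -0.69 to 0.28, n = 2 per genotype; limma adjusted p = 0.999). The probe set 1448914_a_at measured 445 and 298 on knockout-labelled arrays and 471 and 319 on wild-type arrays, so its genotypes overlapped. On 1425154_a_at the values were 240 and 257 against 201 and 250, the only Csf1 probe set with a difference above 0 (log2 0.15, SE 0.26), and on 1425155_x_at, a design that can share sequence with other transcripts, they were 73.1 and 84.0 against 95.8 and 88.4. The 4 Csf1 intervals together span -1.09 to 0.80 on the log2 scale.

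Csf2 was measured above the floor on 1 of 6 arrays. Its probe set, 1427429_at, gave 139 on the LPS array and 6.75 in medium, and on the Trib1 line 8.28 and 9.26 on knockout-labelled arrays and 4.32 and 6.24 on wild-type arrays. The 4 Trib1-line values have no order below the floor, and Csf2 could not be tested between genotypes. On the LPS array it was at least 4.66-fold above the medium array and at least 4.66-fold above each wild-type Trib1-line array that had also received LPS. T and NK cells are known makers of GM-CSF, and the summed level of 11 T and NK cell markers was 418 and 515 on knockout-labelled arrays, 484 and 726 on wild-type Trib1-line arrays, 959 on the LPS array and 433 in medium, with 10 of the 11 above the floor on the LPS array and 5 to 7 on the others. The macrophage, B cell and mast cell sums were also highest on the LPS array, so this order was not particular to T and NK cell markers. B cell markers summed to 4726 there and 3124 in medium, and mast cell markers to 1766 and 1303. The neutrophil and stromal sums were highest on a knockout-labelled array. The part of any of these cell types in the Csf2 level was not tested.

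Over the 13 member probe sets tested between genotypes, limma called 0 higher and 0 lower on knockout-labelled arrays, as it did over all 29078 probe sets (0% called in either direction at a Benjamini-Hochberg adjusted p under 0.05). At an unadjusted p under 0.05, 1 of the 13 was higher, that of Csf3, and 0 were lower, beside 2.28% higher and 2.71% lower of all probe sets. Both knockout-labelled arrays were above both wild-type arrays for 2 of the 13 (Csf3 and Csf3r) and below for 3 (2 of Csf1 and 1 of Csf2ra), against 15.4% and 16.3% of all probe sets, which is near the same share. The size rule set Csf3 apart from the other 12, with each knockout-labelled array 2-fold or more over each wild-type array. That held for 0.389% of all probe sets, and its converse for 0.33% of all and 0 of the 13. The median log2 difference was 0.05 over the 13 and -0.01 over all probe sets tested. With 2 arrays per genotype the smallest two-sided p of an exact permutation test is 0.333, so none was run.

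**Figure D2:**
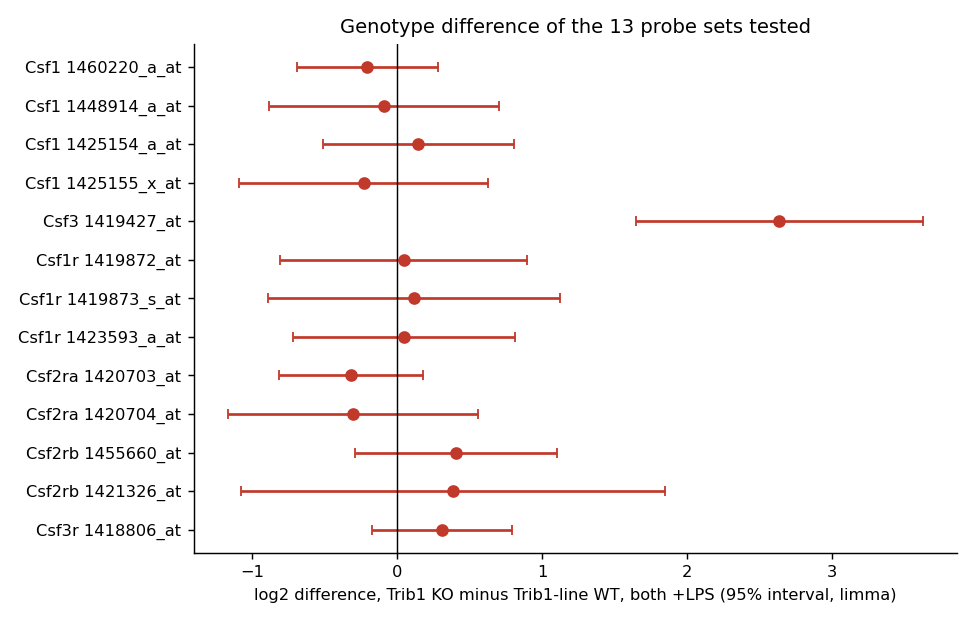
Log2 difference, knockout-labelled minus wild-type Trib1-line arrays after LPS, for the 13 probe sets tested, with 95% intervals from limma (n = 2 per genotype). The interval of Csf3 runs from 1.65 to 3.63 and all others include 0. Each interval is for a single probe set and is not adjusted for the 29078 tested (Csf3, limma adjusted p = 0.766).

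Csf1r, the CSF1 receptor gene, did not separate the genotypes on any of its 3 probe sets. On 1419872_at it measured 6817 and 10523 on knockout-labelled arrays, 6177 and 10915 on wild-type arrays, 9683 on the LPS array and 14301 in medium. Arrays numbered 2 were above arrays numbered 1 in both genotypes, and the genotype difference was within that spread (log2 0.04, SE 0.34, 95% interval -0.81 to 0.90, limma adjusted p = 0.999). The probe set 1419873_s_at gave 3169 and 5460 on knockout-labelled arrays and 2723 and 5422 on wild-type arrays, and 1423593_a_at gave 1954 and 2049 against 1421 and 2638. The medium array was the highest of the 6 on all 3 probe sets.

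Csf3r, the G-CSF receptor gene, measured 2170 and 2043 on knockout-labelled arrays, 1930 and 1494 on wild-type Trib1-line arrays, 2118 on the LPS array and 1128 in medium (1418806_at). Both knockout-labelled arrays were above both wild-type Trib1-line arrays, by a mean of 1.24-fold (log2 0.31, SE 0.19, 95% interval -0.17 to 0.79, limma adjusted p = 0.999), but the wild-type LPS array lay between the knockout-labelled arrays. The receptor therefore differed far less between genotypes than its ligand did, with intervals of the log2 difference that do not meet, though the gap between the genes was not itself tested.

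Csf2ra, the alpha chain of the GM-CSF receptor, was the least variable of the 7 genes by its leading probe set. Its leading probe set, 1420703_at, measured 3492 and 4623 on knockout-labelled arrays, 4740 and 5291 on wild-type arrays, 5044 on the LPS array and 4875 in medium, so that its highest and lowest arrays were 1.52-fold apart. The knockout-labelled arrays were the lowest 2 of the 6 (log2 -0.32, SE 0.20, 95% interval -0.81 to 0.18, limma adjusted p = 0.999). The dimmer 1420704_at measured 110 and 120 on knockout-labelled arrays and 119 and 169 on wild-type arrays, where the genotypes overlapped.

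Csf2rb, the shared beta chain, varied more between arrays than between genotypes. On 1455660_at it measured 8939 and 6562 on knockout-labelled arrays, 7267 and 4607 on wild-type arrays, 20196 on the LPS array and 13248 in medium. On 1421326_at the values were 8549 and 3443 on knockout-labelled arrays, 6763 and 2554 on wild-type arrays, 16520 on the LPS array and 9176 in medium. The log2 genotype differences were 0.40 (SE 0.28) and 0.38 (SE 0.59), both with an adjusted p = 0.999 by limma and with overlapping genotypes.

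Csf2rb2 is the neighbouring copy of Csf2rb in the mouse and encodes a beta chain that serves interleukin 3 alone. Its probe set 1449360_at measured 6848 and 4693 on knockout-labelled arrays, 6521 and 3736 on wild-type arrays, 14147 on the LPS array and 9312 in medium. A probe set listed for both genes, 1450200_s_at, measured 2650 and 1158 on knockout-labelled arrays, 2324 and 973 on wild-type arrays, 8642 on the LPS array and 4318 in medium. All 4 probe sets put the arrays in 1 order, from the LPS array through medium, knockout-labelled 1, wild type 1 and knockout-labelled 2 to wild type 2. Near-identical sequence can carry signal between these genes on an array, so the 4 probe sets are not independent measurements. Among the Csf2rb probe sets, knockout-labelled array 1 stood 1.23-fold and 1.26-fold above wild type 1, and knockout-labelled array 2 stood 1.42-fold and 1.35-fold above wild type 2, while array 1 was above array 2 within each genotype. The titles do not say that same-numbered arrays are pairs, so these ratios are given as values only.

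**Figure D3:**
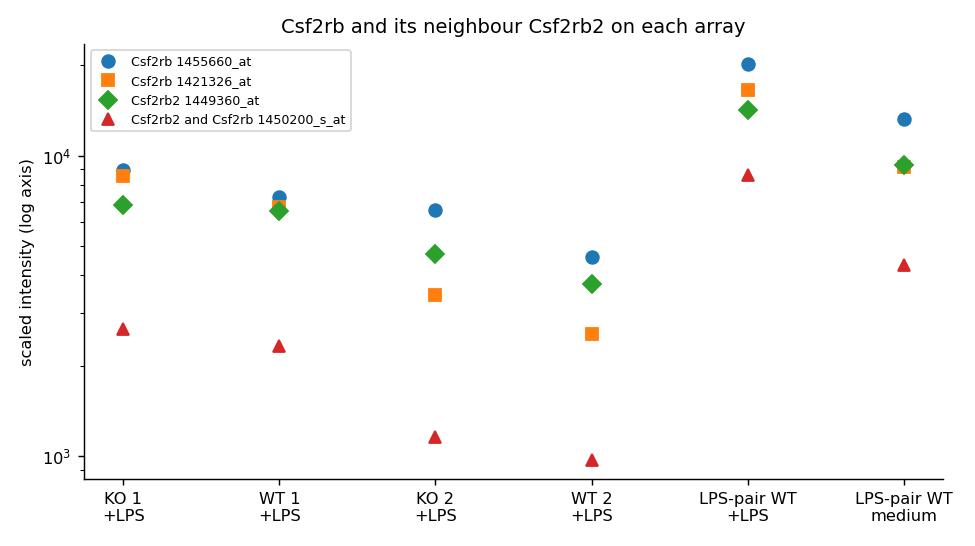
Scaled intensity (log axis) of 2 Csf2rb probe sets, 1 Csf2rb2 probe set and 1 probe set listed for both, on each of the 6 arrays. Each set of points has the same order of arrays, with the LPS array highest (20196 on 1455660_at) and wild type 2 of the Trib1 line lowest (4607).

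LPS against medium was compared on 1 array each, so no test or error applies. All 3 ligand genes were at least 4-fold higher on the LPS array on 1 probe set: Csf2 (at least 4.66-fold), Csf3 (4.65-fold) and Csf1 on 1448914_a_at (4.03-fold). These are 3 of 14 member probe sets above the floor, where 0.986% of all 29115 such probe sets were at least 4-fold higher. Of the 14, 0 were 4-fold lower, beside 0.598% of all. With the floor at the 60th percentile, Csf2 (at least 0.98 on the log2 scale) and Csf3 (1.31) were no longer 4-fold higher. At 2-fold, 6 were higher (4 of Csf1, with Csf2 and Csf3) and 2 lower (both Csf1r), beside 5.02% and 6.29% of all. The other Csf1 probe sets were 3.67-fold, 3.01-fold and 2.15-fold higher on the LPS array. Receptor genes moved less, with Csf3r 1.88-fold and Csf2rb 1.52-fold and 1.80-fold higher, Csf2ra at ratios of 1.03 and 0.935, and Csf1r 1.48-fold, 2.03-fold and 2.06-fold lower. LPS over medium had a median log2 ratio of 0.88 over the 14 members and -0.09 over all 29115.

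Ratios of the wild-type Trib1-line arrays to the same medium array kept the LPS-pair direction for Csf1, Csf3, Csf1r and Csf3r, and reversed it for Csf2rb. The direction for Csf2ra differed between wild type 1 and wild type 2, and Csf2 was under the floor on both. These ratios share the medium array with the LPS pair and are given side by side. Csf3 was 3.45-fold and 7.60-fold above medium on wild type 1 and 2, and all 4 Csf1 probe sets were between 1.27-fold and 2.29-fold above it. Csf1r lay below medium on both, by 2.32-fold and 1.31-fold on 1419872_at and by 4.66-fold and 2.51-fold on 1423593_a_at. Csf2rb lay below medium on both, by 1.82-fold and 2.88-fold on 1455660_at, opposite to its direction in the LPS pair. Csf3r was 1.71-fold and 1.32-fold above medium.

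Counting knockout-labelled arrays as well, all 5 LPS-treated arrays were above the medium array on 6 of the 14 probe sets (4 of Csf1, and those of Csf3 and Csf3r), beside 18.3% of all probe sets. All 5 were below it on 3, those of Csf1r, beside 25.1%. With 1 medium array, any departure of that array from other macrophages in medium enters every one of these comparisons.

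**Figure D4:**
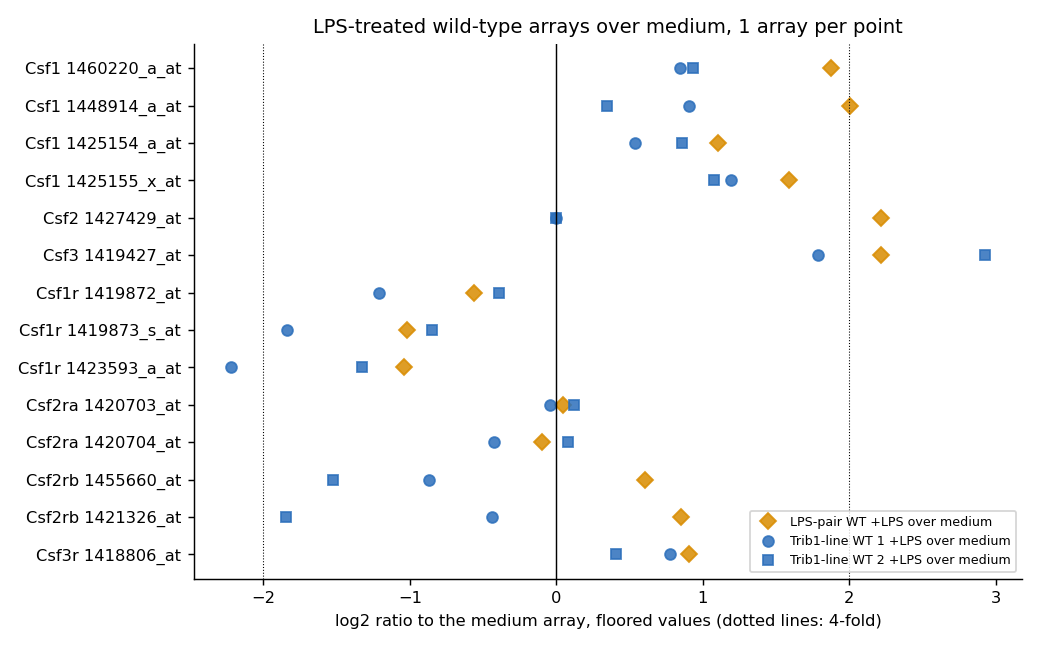
Log2 ratio to the medium array of the LPS array and of the wild-type Trib1-line arrays, 1 array per point, for all 14 member probe sets, with 4-fold marked by dotted lines. Csf1, Csf3 and Csf3r lie right of 0 and Csf1r left of it on all 3 LPS-treated wild-type arrays, while Csf2rb lies right of 0 on the LPS array alone.

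Genes that work with these cytokines were read from lists of related ligands and receptors, receptor-proximal signalling, feedback and shedding, and response genes. None of their members passed the genotype test over all probe sets, so each is given by its values. Among 9 related ligands and receptors, 6 could be tested (0 at an unadjusted p under 0.05, median log2 difference -0.06). Il34, the other ligand of CSF1R, was under the floor on both knockout-labelled arrays and measured 33.7 and 65.0 on wild-type Trib1-line arrays. It was also under the floor on the wild-type arrays of the LPS pair, at 2.53 with LPS and 5.58 in medium. Kitl, which encodes the stem cell factor that binds the KIT receptor, measured 134 and 263 on knockout-labelled arrays and 210 and 421 on wild-type arrays, and 383 on the LPS array against 704 in medium. Il3 and Il5, ligands of receptors that share the beta chain, were under the floor on all 6 arrays, and Il5ra was above it on 1 Trib1-line array (44.2 on knockout-labelled array 2) and on the LPS array (78.2, against 27.3 in medium).

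Of 20 signalling and transcription genes tested, 1 was higher and 3 lower on knockout-labelled arrays at an unadjusted p under 0.05, and 0 after adjustment, with a median log2 difference of 0.00. The unadjusted shares over all probe sets were 2.28% higher and 2.71% lower. Ets2, a transcription factor that acts downstream of CSF1R, measured 2164 and 2068 on knockout-labelled arrays and 1190 and 1074 on wild-type arrays (log2 0.90, SE 0.17, limma adjusted p = 0.787), while the wild-type LPS array reached 2261. Pik3r1, a regulatory subunit of phosphoinositide 3-kinase, measured 267 and 237 against 413 and 398 (log2 -0.69, SE 0.23). Fyn, a Src family kinase, measured 488 and 393 against 662 and 699 (log2 -0.64, SE 0.21). In the LPS pair Jak2, a kinase of the GM-CSF and G-CSF receptors, measured 5149 on the LPS array and 1398 in medium (3.68-fold), and Stat5a, a transcription factor that it activates, 1445 and 408 (3.54-fold). The wild-type Trib1-line arrays, also LPS-treated, were nearer to medium for Stat5a (591 and 619), and measured 2985 and 3504 for Jak2. Cebpa, which drives Csf3r in the granulocyte lineage, measured 554 on the LPS array and 4157 in medium, 7.51-fold lower, and was the 1 gene of the 20 to differ 4-fold (0.598% of all probe sets were 4-fold lower).

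Feedback genes gave 1 of 16 at least 4-fold higher with LPS, beside 0.986% of all probe sets. It was Cish, a STAT5-induced inhibitor of cytokine receptors. It measured 2057 on the LPS array and 368 in medium (5.59-fold). On the Trib1 line it measured 411 and 335 on knockout-labelled arrays and 297 and 361 on wild-type arrays, close to medium, so that Cish, like Csf2, was high in the LPS pair's treated array alone. Dok2, an adaptor that restrains receptor tyrosine kinases, measured 1251 on the LPS array and 4853 in medium, and Inpp5d, the phosphatase SHIP1, 248 and 907. Between genotypes 0 of 16 were higher and 1 lower at an unadjusted p under 0.05 (2.28% and 2.71% of all probe sets), with a median log2 difference of 0.07. Ptpn6, the phosphatase SHP-1, measured 2935 and 4109 on knockout-labelled arrays and 5380 and 5966 on wild-type arrays (log2 -0.71, SE 0.22, limma adjusted p = 0.950). Dok3 measured 370 and 626 on knockout-labelled arrays against 287 and 286, and Dok2 1145 and 969 against 939 and 348.

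Among 11 genes known to respond to GM-CSF or G-CSF, 10 were tested between genotypes, with 0 higher and 3 lower on knockout-labelled arrays at an unadjusted p under 0.05, beside 2.28% and 2.71% of all probe sets, and 0 after adjustment. Ccl22, a T cell chemoattractant, measured 911 and 543 on knockout-labelled arrays and 1962 and 1120 on wild-type arrays (log2 -1.08, SE 0.37). Itgax, the integrin CD11c, measured 1244 and 2233 against 3031 and 4055 (log2 -1.07, SE 0.32). Gfi1, a transcriptional repressor of the granulocyte lineage, measured 31.9 and 69.6 against 190 and 121 (log2 -1.69, SE 0.51). In the LPS pair Ccl22 was 6.59-fold higher with LPS, Gfi1 was at least 3.35-fold higher, and Pparg, which GM-CSF induces in lung macrophages, was at least 4.82-fold lower. The median log2 difference between genotypes over the 10 was 0.03.

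**Figure D5:**
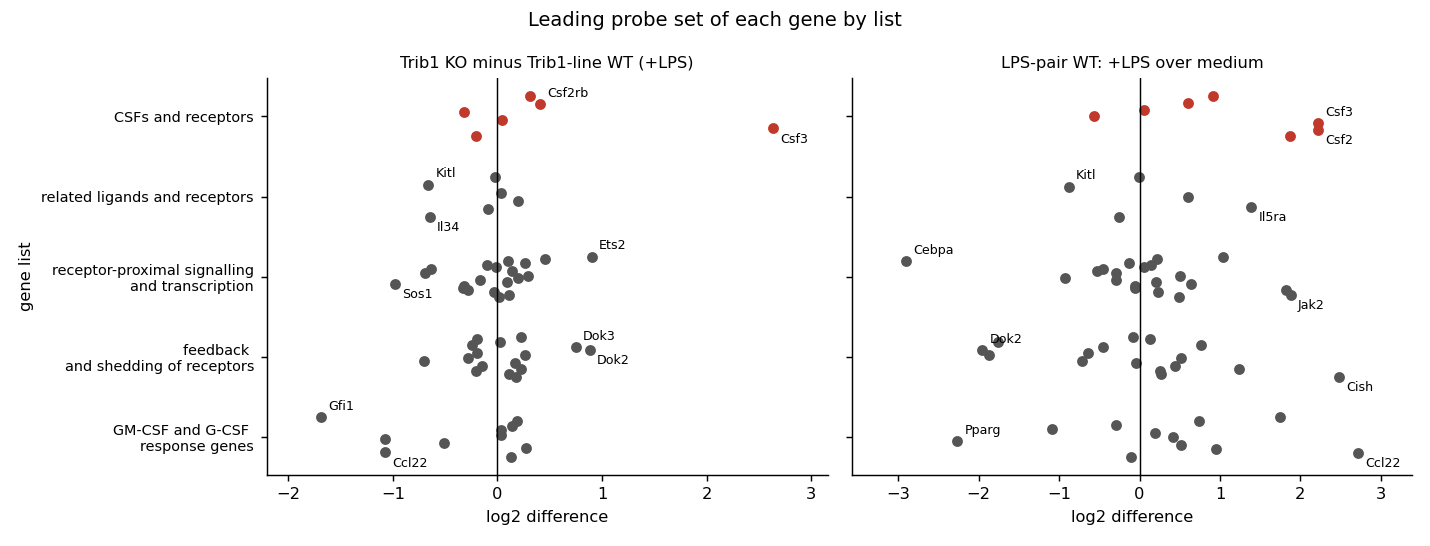
Log2 differences of the leading probe set of each gene, by list, for knockout-labelled minus wild-type Trib1-line arrays (left) and LPS over medium in the LPS pair (right). Csf3 (2.64) lies farthest from 0 on the left, and Ccl22, Cish, Csf3 and Csf2 lie among the highest on the right.

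Genes with array patterns most like those of the members were sought over the 6 arrays by Pearson correlation of floored log2 values. With 6 arrays and many probe sets searched, high values are given as descriptions with no p. The arrays differ in treatment and in deposited scale, so a shared pattern can follow those differences. Among 1983 probe sets with a log2 range of at least 2, those most like Csf3 were of Sgms2, which makes sphingomyelin (r = 0.984), Plat, the tissue plasminogen activator (r = 0.977), and Zdhhc2, a palmitoyltransferase (r = 0.972). Sgms2 measured 535 and 507 on knockout-labelled arrays, 193 and 271 on wild-type Trib1-line arrays, 189 on the LPS array and 66.8 in medium. Most like Csf2rb were Tmppe (r = 0.965), the transcription factor gene Ets1 (r = 0.958) and the interferon-induced transmembrane family gene Ifitm6 (r = 0.944). Without the range limit, 23518 probe sets were searched for the other genes: Rap1b led for Csf1 (r = 0.998), Entpd5 for Csf1r (r = 0.999), Atp6v1d for Csf2ra (r = 0.994) and Oaf for Csf3r (r = 0.994). Rap1b varied only between 10555 and 15645 over the arrays, so the likeness is one of order and not of size.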

How the data were processed

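RNA of 6 macrophage samples was measured on one-colour arrays. The deposited intensity values are on a linear scale and were made by the authors with MAS5, per the submitters' processing notes; its version and scaling target are not given in the sources used here. The trimmed mean (2% off each end) was 500 for the LPS pair and between 95.5 and 107 otherwise, so each array was rescaled to 234. The 64 control probe sets were then left out. Gene names came from the platform annotation, in which 34945 probe sets list 1 symbol, 932 several and 9160 none. The leading probe set of a gene has the highest mean over the 6 arrays.

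The genotype test was limma 3.58.1 (R 4.3.3), two-sided, with lmFit and a trended eBayes on the 4 Trib1-line arrays; 29078 probe sets exceeded the floor on 2 or more of those and were tested. P-values were adjusted by Benjamini-Hochberg over all of these. Folds for LPS used floored values. A fold against a group under the floor is a lower bound. The fit was also run on simulated data with changes larger than that of Csf3, which does not show how it performs at the sizes seen here. Tables and figures used Python 3.11.15, pandas 2.3.3, numpy 2.4.6 and matplotlib 3.10.9.

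The members, lists and settings were chosen with earlier results of these data known. All member probe sets were named, with up to 3 genes of each pathway list by genotype p and up to 3 by LPS ratio. Other settings tried were quantile normalization, the deposited scale, other floors, a pseudocount of 16, no filter, the number in the titles as a block, each array left out, the LPS array as an added wild type, no trend, fold rules of 2 and 8, and wild-type Trib1-line arrays in place of the LPS array.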

Additional observations from a re-analysis of the deposited data

How the results depend on the processing

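The Csf3 difference kept its direction under all 13 alternatives, with log2 values from 2.07 to 3.21, and limma's adjusted p ranged from 0.0113 to 0.906. The titles share the numbers 1 and 2 between genotypes without saying that they pair arrays; deviations from the genotype means of same-numbered arrays correlated with r = 0.35 over 29078 probe sets, and with 2 pairs the pairing could not be settled. With the replicate block, Csf3 passed (adjusted p = 0.0113), as 1 of 13 members called, and over all probe sets 85 were called higher and 31 lower, against 0 and 0. Leaving out 1 array called between 0 and 1 members (Csf3, without knockout-labelled array 1, adjusted p = 0.0244, or without wild type 2, 0.0397), between 5 and 36 probe sets higher and between 0 and 32 lower; those fits test fewer arrays, with the lone array assumed to vary like the others. All other alternatives called 0. Among the other 12 probe sets none passed under any alternative, and the sign changed under 1 or more of them for all 3 of Csf1r, both of Csf2rb, and 1448914_a_at and 1425154_a_at of Csf1. With the values as deposited 1 member probe set, not 3, had both knockout-labelled arrays below both wild-type arrays.

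For LPS over medium, 6 member probe sets were higher by a fold rule of 2 and 0 by a rule of 8, against 3 by the rule of 4; there was 1 (of Csf1, without Csf2 and Csf3) with the floor at the 60th percentile, which lowers every ratio that starts near the floor. With wild type 1 of the Trib1 line in place of the LPS array 0 were 4-fold higher and 1 lower (a probe set of Csf1r), and with wild type 2 there was 1 higher, that of Csf3. By a rule of 2, 2 were lower, both of Csf1r. A ratio without a floor, chosen after seeing the data, gave 3 higher and 0 lower. The causes of the differences between arrays were not tested.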
